A study of Mus musculus with 2 samples.

Results

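CD8 T cells were the subject here: cell barcodes with RNA of CD3 and of the CD8 coreceptor, taken from single-cell RNA sequencing of CD45+ cells sorted out of subcutaneous MC38 tumours. MC38 is a mouse colon adenocarcinoma line, grown here in C57BL/6 mice, and the groups were named UEIS LSL and UEIS KI. What these names stand for is not spelled out in the labels, and no promoter, Cre, age, sex or number of pooled animals is given there. Each group held 1 library made with the 10x Genomics 3' v3 kit, so no difference between the groups could be tested. Every 95% interval below covers counting error only, not the spread between mice. Intervals of summed UMIs and of their ratios also leave out the spread between barcodes, so 1 barcode can move a value outside them. A barcode was a member if it had at least 500 UMIs (unique molecular identifiers, each standing for 1 captured RNA molecule), at least 200 genes, at most 10% mitochondrial UMIs, at least 2 UMIs of Cd3d, Cd3e and Cd3g together and at least 1 UMI of Cd8a or Cd8b1. Barcodes with a UMI of Foxp3 or Trdc, which mark regulatory and gamma-delta T cells, were left out. This gave 91 of 19261 barcodes, 61 in UEIS LSL and 30 in UEIS KI.

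CD8 T cells recognise peptides on MHC class I through the alpha-beta T cell receptor, with the CD8 heterodimer as coreceptor, and kill target cells with perforin and granzymes. Activated ones also secrete interferon-gamma and the chemokines CCL3, CCL4 and CCL5. Under prolonged antigen exposure in tumours they take on inhibitory receptors such as PD-1 and LAG-3, while a TCF-1-positive, IL-7 receptor-positive pool keeps the ability to renew. The series title places the study in type I interferon signalling, which acts on T cells directly and through antigen-presenting cells.

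CD3 and CD8 RNA chose the members, so their presence is a description. Cd8a and Cd8b1 were seen together in 44 of 61 UEIS LSL barcodes and 16 of 30 UEIS KI barcodes, Cd8a alone in 8 and 5, and Cd8b1 alone in 9 and 9. Cd8a, the coreceptor alpha chain, had a median of 3 UMIs in UEIS LSL (lowest 0, highest 13) and 1 in UEIS KI (0 to 8), so the ranges overlapped. Membership rested on a single Cd8 UMI in 7 and 6 barcodes and on exactly 2 CD3 UMIs in 3 and 5. Just outside, 0 and 5 barcodes met the other criteria with 1 CD3 UMI, and 8 and 2 were left out for a Foxp3 UMI. Ccl5, a chemokine of effector and memory CD8 T cells, was seen in 83.6% and 73.3% of members. Of macrophage barcodes (10 or more C1q UMIs and no CD3 UMI) 8.06% and 3.17% had it. This sets the members against macrophages alone, so it cannot tell CD8 T cells from natural killer or other T cells. Gzmk, a granzyme of memory-like effector CD8 T cells, was seen in only 21.3% and 26.7%, against 1 of 5693 and 0 of 6155 macrophage barcodes. Median depths were 9982 and 7197 UMIs in the members and 9574 and 10322 in the macrophage barcodes. Cd4 was seen in 2 and 1 members, and Cd40lg and Cd4 together summed to 7 and 2 UMIs. Of 6 natural killer cell markers, Ncr1 was at 0 in both libraries. At least 1 UMI of those 6 was seen in 31 of 61 and 8 of 30 members, with Klre1 the most frequent. For 14 gamma-delta T cell markers, with Trgc2 the most frequent, it was 24 of 61 and 5 of 30. Macrophage barcodes had the 2 lists in at most 2.27% and 0.504%. The part of such cells among the members was not tested.

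The members were a smaller share of the sorted cells in UEIS KI. They made up 0.651% of 9370 quality-passed barcodes in UEIS LSL (exact Clopper-Pearson 95% interval 0.498 to 0.835) and 0.318% of 9442 in UEIS KI (0.214 to 0.453), which on the log2 scale is -1.03 (-1.72 to -0.38). The UEIS KI library therefore held 2.05 times fewer of them per barcode sorted. Counting only members with under 10 UMIs of complement C1q, a macrophage product described below, the shares were 0.320% and 0.191%, and the log2 interval of -0.75 (-1.68 to 0.14) included 0. Regulatory T cell barcodes, with a Foxp3 UMI, were also a smaller share in UEIS KI, 0.455% against 1.12%. Gamma-delta T cell barcodes, with a Trdc UMI, were at 0.498% and 0.395%, with overlapping intervals. Among barcodes with at least 2 CD3 UMIs, CD8 T cells were 16.1% of 378 (12.6 to 20.2) and 12.8% of 234 (8.82 to 17.8), and these intervals overlapped. The smaller share of CD8 T cells thus went with a smaller share of all T cell barcodes, 4.03% in UEIS LSL and 2.48% in UEIS KI. With 1 tumour preparation per group, group and preparation cannot be told apart.

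**Figure D1:**
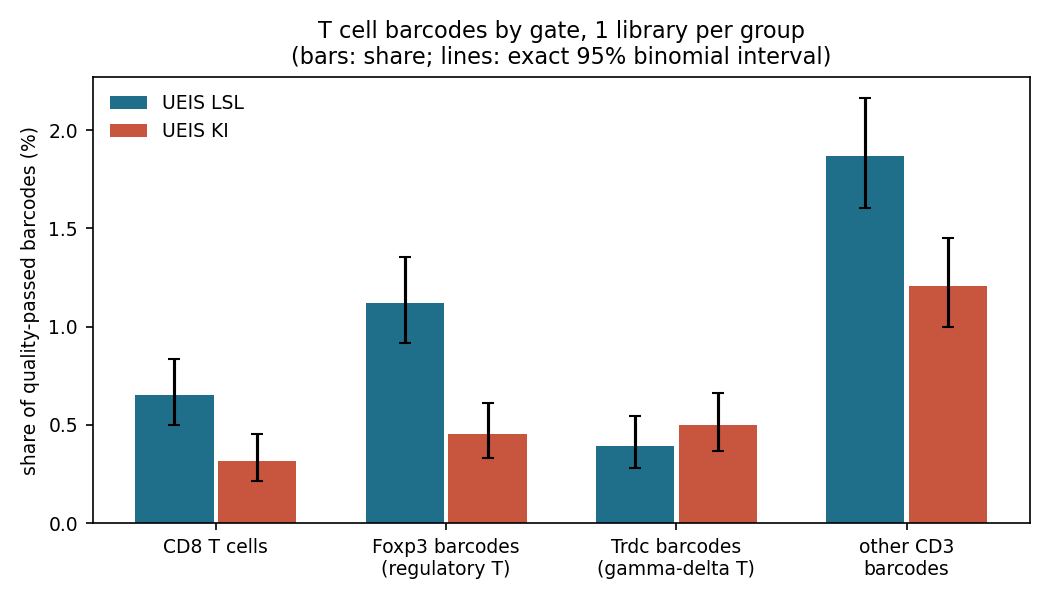
Share of quality-passed barcodes in 4 T cell gates (percent, y axis) for the UEIS LSL and UEIS KI libraries, with exact 95% binomial intervals as lines. CD8 T cells stood at 0.651% and 0.318%, and the Trdc gate was the one of the 4 with its higher value in UEIS KI.

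Many members also carried macrophage RNA. Complement C1q, made by tumour macrophages, reached 10 or more UMIs in 31 of 61 UEIS LSL members (50.8%, interval 37.7 to 63.9) and 12 of 30 UEIS KI members (40%, 22.7 to 59.4). In these barcodes C1q was at the level of macrophages: the median was 97 and 165.5 UMIs, against 95 and 102 in macrophage barcodes without CD3. They were also deep, with medians of 16856 and 19149.5 UMIs, while the members under 10 C1q UMIs had 4316 and 2552.5. Scrublet, which looks for profiles like the sum of 2 cells, called 8 of the 31 and 9 of the 12 doublets, but only 1 of 30 and 2 of 18 members under 10 C1q UMIs. Both classes held T cell RNA: a reference sum of 15 T cell genes was 21.8 UMIs per barcode in the C1q-rich UEIS LSL members and 21.5 in the others, and 17.3 and 12.2 in UEIS KI. Key values are therefore repeated below for the 30 and 18 members with under 10 C1q UMIs. No barcode sequence was a member in both libraries, and 1 UEIS LSL member's sequence was found among the UEIS KI barcodes, of 34 sequences that the libraries shared.

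**Figure D2:**
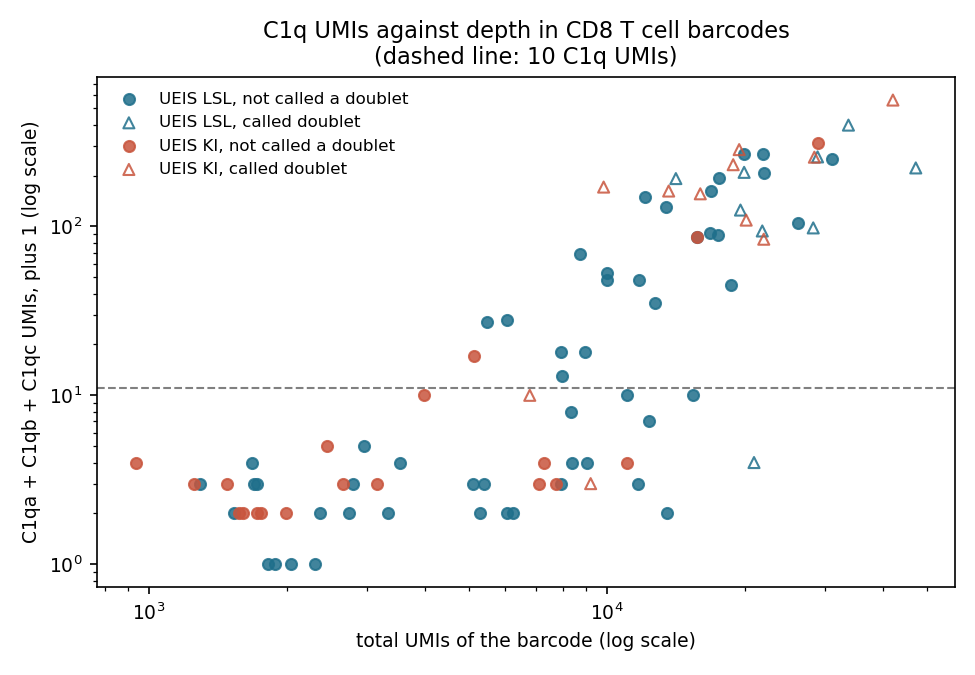
C1q UMIs plus 1 (y axis, log scale) against total UMIs (x axis, log scale) for each of the 91 CD8 T cell barcodes, by library, with triangles for called doublets and a dashed line at 10 C1q UMIs. Barcodes above the line were the deeper ones in both libraries, and 17 of the 20 called doublets lay there.

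T cell receptor and signalling RNA set the scale for everything else. The 15-gene T cell reference (receptor constant, signalling and lineage genes such as Trac, Lck and Bcl11b, none of them a gate gene) was lower per barcode in UEIS KI, 14.2 against 21.6 UMIs, a log2 ratio of -0.60 (-0.76 to -0.44). All UMIs together differed less, 10464 against 12016 per barcode, a log2 ratio of -0.20. Trac, the receptor alpha constant gene, had 3.18 UMIs per barcode in UEIS LSL (Poisson interval 2.75 to 3.66) and 1.5 in UEIS KI (1.09 to 2.01). Trbc2, a beta constant gene whose reads can be shared with its near copy Trbc1, had 3.61 (3.15 to 4.12) and 3.03 (2.44 to 3.72). Of 16 TCR signalling genes, such as the kinases Lck and Zap70 and the adaptor Lat, 10 were measured (at least 30 UMIs over the members of both libraries together), and 0 were higher or lower in UEIS KI. A gene was counted higher or lower when it differed at least 1.5-fold in UMIs per barcode and its counting interval excluded 1. On that rule 8.52% of all 4706 measured genes were lower and 1.36% higher. Among the 129 genes with at least 3 times the macrophage level, which lie less under macrophage RNA, 43.4% were lower and 1.55% higher, with a median log2 ratio of -0.74. The median T cell-enriched gene was thus lower per barcode in UEIS KI. Values per T cell reference UMI are therefore given below where they change a call or for the main genes. On that scale the T cell-enriched genes had a median of -0.14, with 13.2% lower and 10.1% higher. These genes were chosen over the members of both libraries pooled, more of them in UEIS LSL. A gene high in UEIS LSL alone could pass, and the CD3 and CD8 gate genes were not left out. Their shares and medians can therefore lean towards lower in UEIS KI.

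Interferon-gamma RNA was lower in UEIS KI members on every scale used, but its size rested on 1 barcode. Ifng, the gene of interferon-gamma, a cytokine that activates macrophages and MHC class I (mouse chr10:118441046-118445892, plus strand, GRCm38), had 525 UMIs in 61 UEIS LSL members, or 8.61 per barcode (7.89 to 9.38), with a lowest value of 0, a median of 2 and a highest of 290. UEIS KI members had 32 UMIs in 30, or 1.07 per barcode (0.73 to 1.51), with a lowest of 0, a median of 0 and a highest of 7. The ranges overlapped, and the log2 ratio was -3.01 (-3.58 to -2.50). The UEIS LSL barcode with 290 Ifng UMIs had 39 CD3 UMIs, 1 of Cd8b1, 0 of Cd8a, 3 of Cd4, 10 of Csf2, 0 of Ccl5 and 9 C1q UMIs. The next 3 UEIS LSL barcodes had 34, 29 and 15. Without the highest barcode of each library the levels were 3.92 (3.43 to 4.45) and 0.862 (0.558 to 1.27), and the log2 ratio was -2.18 (-2.84 to -1.59). Without the 2 and 1 barcodes with a Cd4 UMI it was -1.85 (-2.43 to -1.32).

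Counting barcodes in place of UMIs gave the same direction over all members, but not among the C1q-rich ones. Ifng was seen in 43 of 61 UEIS LSL members (70.5%, interval 57.4 to 81.5) and 12 of 30 UEIS KI members (40%, 22.7 to 59.4), against 0.351% and 0.13% of macrophage barcodes. With each barcode thinned to 1000 UMIs, which left out 1 UEIS KI member, the shares were 31.1% and 10.3%. Among C1q-rich members Ifng was seen in 19 of 31 (61.3%) and 7 of 12 (58.3%), with widely overlapping intervals. Among members with under 10 C1q UMIs Ifng was seen in 24 of 30 and 5 of 18, and after thinning in 56.7% of 30 and 29.4% of 17. The thinned intervals overlapped, 37.4 to 74.5 and 10.3 to 56.0. Each thinning was a separate random draw, so the counts of both do not nest: 3 of 29 UEIS KI members had Ifng in the first and 5 of 17 in the second. Per T cell reference UMI the log2 ratio was -2.41 (-2.97 to -1.89). Macrophage RNA held little Ifng: scaled by C1q, it came to 0.0792% and 0.203% of the members' UMIs.

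The promoter windows of the genes of interferon-gamma and PD-1, the secreted product and the receptor described next that were lower in UEIS KI on each of 6 scales below, are shown for context. They are the 250 bases before each RefSeq start (GRCm38.p6), with capitals for GGAAA, the core letters bound by NFAT, searched on both strands (TTTCC is its reverse complement). It can overlap the core of the interferon-stimulated response element.
Ifng: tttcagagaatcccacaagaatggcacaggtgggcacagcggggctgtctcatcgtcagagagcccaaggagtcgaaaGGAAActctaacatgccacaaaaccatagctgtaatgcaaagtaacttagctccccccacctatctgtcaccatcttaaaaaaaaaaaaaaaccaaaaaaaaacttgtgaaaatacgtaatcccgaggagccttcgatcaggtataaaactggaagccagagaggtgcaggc
Pdcd1: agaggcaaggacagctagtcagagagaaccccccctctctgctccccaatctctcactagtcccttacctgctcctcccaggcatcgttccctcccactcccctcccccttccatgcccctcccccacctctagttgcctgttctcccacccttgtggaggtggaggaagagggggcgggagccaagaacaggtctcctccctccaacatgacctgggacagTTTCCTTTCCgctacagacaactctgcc
The Ifng window lies at chr10:118440796-118441045 on the plus strand and had 1 match, and the Pdcd1 window at chr1:94052554-94052803 on the minus strand had 2. GGAAA was found in 55.6% of 32851 promoter windows, so these matches are common. TGANTCA, bound by AP-1, was in neither window and in 6.75% of all, and GGTGTGA, a T-box half-site, was in neither and in 3.33% of all. That response element core was in neither and in 2.98% of all. A match is a description of letters, not a site that was measured here.

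PD-1, LAG-3 and CTLA-4 RNA was lower in UEIS KI, and the other inhibitory receptors measured did not meet the rule for a difference. Of 15 listed genes 8 were measured, Pdcd1, Lag3 and Ctla4 were lower in UEIS KI, 0 were higher, and the median log2 ratio was -0.43. Over all measured genes 8.52% were lower, with a median of -0.18. Over T cell-enriched genes 43.4% were lower, with a median of -0.74. That set can lean towards lower in UEIS KI, and the list was not filtered for enrichment over macrophages. The list and that set are therefore not a like comparison. Pdcd1, which encodes PD-1, had 121 UMIs in UEIS LSL (1.98 per barcode, 1.65 to 2.37; lowest 0, median 0, highest 11) and 13 in UEIS KI (0.433, 0.231 to 0.741; 0, 0 and 2). That was 4.58 times lower, a log2 ratio of -2.19 (-3.14 to -1.37), and -1.59 (-2.54 to -0.76) per T cell reference UMI. It was spread over barcodes: 28 of 61 had it in UEIS LSL and 8 of 30 in UEIS KI, 17 UEIS LSL barcodes had more than the UEIS KI maximum, and macrophage barcodes had it in 0.527% and 0.244%. Thinned to 1000 UMIs the shares were 16.4% and 10.3%, and their intervals overlapped.

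Lag3, an inhibitory receptor for MHC class II, had 53 UMIs over 23 UEIS LSL members (highest 8) and 1 UMI in 1 UEIS KI member, a log2 ratio of -4.70 with a counting interval from -10.03 to -2.16. Among members with under 10 C1q UMIs it had 16 UMIs and 0, where 0 of 18 barcodes allows a share of up to 16.7%. Macrophage barcodes had it in 1.76% and 0.894%, and thinned to 1000 UMIs the members had it in 4 of 61 and 0 of 29. Ctla4, which competes with Cd28 for its ligands, had 1.10 and 0.433 UMIs per barcode, but its ratio per T cell reference UMI, -0.74 (-1.72 to 0.13), had an interval that included 0. Havcr2, which encodes TIM-3, had 0.377 and 0.333, and Entpd1, which encodes CD39, had 36 and 15 UMIs. For both, macrophage RNA scaled by C1q came to between 47.1% and 93.1% of the members' UMIs.

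Barcodes with 2 or more of 6 inhibitory receptors were found in both libraries, 33 of 61 in UEIS LSL and 12 of 30 in UEIS KI, at a higher median depth in UEIS LSL. Of the same receptors, 4 or more were seen in 13 of 61 UEIS LSL members and 0 of 30 UEIS KI members, while 15 and 11 had none. Pdcd1 and Lag3 shared 21 UEIS LSL barcodes, which was 75% of those with Pdcd1 and 91.3% of those with Lag3, and 0 in UEIS KI. Ifng was seen in 26 of the 28 UEIS LSL members with Pdcd1 and in 3 of the 8 in UEIS KI. These overlaps grow with depth and were not compared at equal depth.

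**Figure D3:**
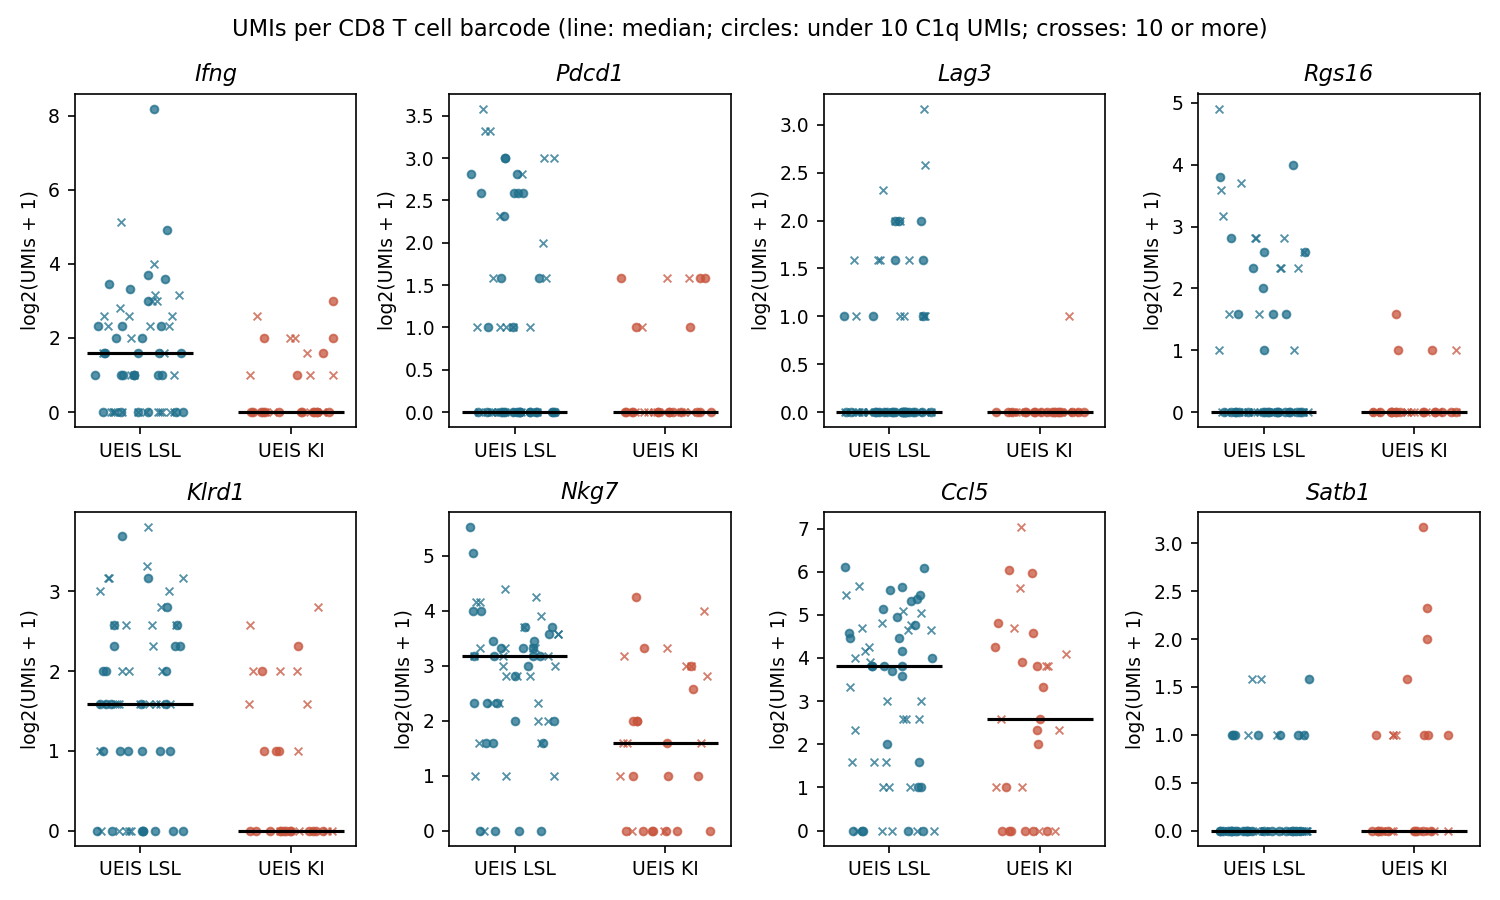
UMIs per CD8 T cell barcode as log2(UMIs + 1) on the y axis for 8 genes, each point a barcode, by library (x axis) and C1q class (circles under 10, crosses 10 or more), with the median as a line. The single UEIS LSL barcode at 290 Ifng UMIs stands far above the next at 34, and Lag3 has 1 nonzero point in UEIS KI.

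GITR and OX40 RNA was lower per barcode in UEIS KI, while the costimulatory list as a whole lay near the T cell-enriched background. Of 11 listed costimulatory genes 7 were measured, 4 were lower (Tnfrsf18, Tnfrsf4, Tnfrsf9 and Icos) and 0 higher, against 43.4% lower among T cell-enriched genes. As stated above, that set can lean towards lower in UEIS KI. Per T cell reference UMI 2 of the 7 were lower, and by CPM with under 10 C1q UMIs 1 of 6. Tnfrsf18, which encodes GITR, had 66 UMIs over 29 UEIS LSL members (highest 14) and 7 UMIs over 7 UEIS KI members (highest 1), a log2 ratio of -2.21 (-3.58 to -1.09). Tnfrsf4, which encodes OX40, had 51 and 7 UMIs, of which 15 were in the barcode with the most Ifng. With under 10 C1q UMIs Tnfrsf4 was lower per barcode, but did not meet the rule by CPM or per T cell reference UMI. Tnfrsf9, which encodes 4-1BB and follows receptor triggering, had 2 and 0.867 UMIs per barcode, but per T cell reference UMI its interval included 0 (-0.60, -1.27 to 0.02). Cd28, the receptor for CD80 and CD86, had 1.87 and 1.53, with overlapping intervals. Ikzf2, which encodes the transcription factor Helios, had 65 and 6 UMIs over 27 and 5 members, but with under 10 C1q UMIs it had 11 and 2, and the interval included 0 (-1.72, -4.94 to 0.47). Ctla4, Tnfrsf4 and Ikzf2 are also markers of regulatory T cells: the summed UMIs of 6 such markers (Foxp3 is at 0 by the gate) ran from 0 to 27 per UEIS LSL member and from 0 to 5 per UEIS KI member, with medians of 2 and 0. Il2ra among them was at 0.131 and 0.0667 UMIs per barcode. The part of regulatory T cells without a Foxp3 UMI in these values was not tested.

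Killing genes had no shared direction. Of 18 cytotoxic effector genes 10 were measured, of which Gzma was higher in UEIS KI, Nkg7, Ctsw and Serpinb9 were lower, and the median log2 ratio was -0.13. Beside these, 8.52% of all measured genes were lower and 1.36% higher, and 43.4% and 1.55% of T cell-enriched genes. Nkg7, a granule membrane protein needed for full degranulation, had 8.11 UMIs per barcode in UEIS LSL (7.42 to 8.86; lowest 0, median 8, highest 45) and 3.73 in UEIS KI (3.07 to 4.49; 0, 2 and 18). The ratio was -1.12 (-1.43 to -0.82) per barcode and -0.52 (-0.83 to -0.22) per T cell reference UMI, a scale on which it was under 1.5-fold. Thinned shares were 57.4% and 24.1%, against 0.527% and 0.309% of unthinned macrophage barcodes. Prf1, the pore-forming perforin, had 1.18 (0.924 to 1.49) and 0.900 (0.593 to 1.31), and Gzmb, the granzyme that cuts caspases, had 0.770 (0.566 to 1.02) and 0.733 (0.460 to 1.11). Neither differed beyond its counting interval. Cst7, an inhibitor of the proteases that activate granzymes and not on that list, was lower, with 140 UMIs over 45 members and 21 over 6.

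Granzyme A was higher in UEIS KI, yet in few barcodes. Gzma had 9 UMIs over 2 UEIS LSL members (8 in 1 of them) and 40 UMIs over 4 UEIS KI members (29 and 9 in the top 2), so the log2 ratio of 3.18 (2.11 to 4.40) described those barcodes. Without called doublets it was -0.72: 2 called doublets, with 29 and 9 UMIs, were left out in UEIS KI. Thinned to 1000 UMIs per barcode it was -0.25. All 4 UEIS KI barcodes with Gzma also had Gzmk, which had 17 and 15 UMIs in all, a log2 ratio of 0.84 (-0.26 to 1.93) per barcode and 1.45 (0.34 to 2.54) per T cell reference UMI.

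Chemokines divided. Ccl5 had the same mean in both libraries, 16.7 UMIs per barcode (15.7 to 17.8 and 15.2 to 18.2), but a median of 13 in UEIS LSL (lowest 0, highest 68) and 5 in UEIS KI (0 and 130), and the UEIS KI barcode with 130 held 26% of its library's sum. Its direction changed with the scale: per T cell reference UMI the log2 ratio was 0.60 (0.44 to 0.75), without the highest barcode of each library -0.32 (-0.49 to -0.14) per barcode, and with under 10 C1q UMIs -0.61 (-0.83 to -0.40). Ccl4, a chemokine of activated T cells and macrophages, had 24.7 (23.4 to 26.0) and 12.9 (11.7 to 14.3), and Ccl3, a related chemokine, had 401 and 73 UMIs. Macrophages make both: scaled by C1q, their RNA came to 32% and 55.9% of the members' Ccl4 and to 41.7% and 115% of their Ccl3. Among members with under 10 C1q UMIs Ccl3 had 98 and 17 UMIs, a ratio of -1.79 (-2.63 to -1.04) at macrophage parts of 3.13% and 9.98%. Over all members 8.52% of all measured genes and 43.4% of T cell-enriched genes were lower per barcode. Of 15 listed cytokines and chemokines 7 were measured, 4 were lower (Ifng, Ccl3, Ccl4 and Tnf) and 0 higher, with a median of -0.93. Per T cell reference UMI Ifng and Ccl3 were lower, Ccl5 was higher, and the median was -0.33, while Ccl4 (-0.33, -0.49 to -0.17) and Tnf (-0.51, -1.67 to 0.50) were not called.

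Some other receptors and regulators were lower per barcode in UEIS KI. Rgs16, Serpina3g and Nrgn were among the T cell-enriched genes ranked lower by their interval bounds, while Klrd1 and Cd6 were not. Rgs16, a regulator that limits G protein-coupled chemokine signals, had 159 UMIs over 26 UEIS LSL members (highest 29) and 5 UMIs over 4 UEIS KI members (highest 2), 15.6 times lower with a log2 ratio of -3.97 (-5.61 to -2.71). Klrd1, which encodes CD94, the partner of NKG2 receptors, was seen in 48 of 61 and 13 of 30 members, with 3.13 (2.70 to 3.61) and 1.17 (0.813 to 1.62) UMIs per barcode. Cd6, a surface receptor that tunes T cell activation and 1 of the 15 reference genes, had 93 and 16 UMIs. Serpina3g, a serine protease inhibitor, had 94 and 10, and Nrgn, which encodes a calmodulin-binding protein, had 108 and 16. Cma1, Tpsb2 and Mcpt4, which are mast cell proteases, also ranked among the lowest in UEIS KI, but 1 UEIS LSL barcode held 125 of 126, 54 of 54 and 39 of 39 of their UMIs.

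On 6 scales (UMIs per barcode, CPM, that is UMIs scaled to the members' total, and UMIs per T cell reference UMI, each with all members and with those under 10 C1q UMIs) 9 of the 85 genes examined gene by gene were lower on every one: Ifng, Rgs16, Pdcd1, Lag3, Tnfrsf18, Klrd1, Cst7, Cd6 and Ccl3. For Lag3 among members with under 10 C1q UMIs this rests on the floor of 3 UMIs set against 0. Satb1 and Gzma were higher on every one. Ifng, Rgs16, Pdcd1, Lag3, Tnfrsf18, Cst7, Satb1 and Gzma were among the genes ranked by their per-barcode ratios in these same data. The 6 scales also share the same UMIs, so these counts are a description and not separate support. The share of all measured genes called on every scale was not counted. Over all 4706 measured genes 4.33% were lower and 4.04% higher by CPM. Among members with under 10 C1q UMIs 30.3% of 1304 genes were lower and 1.07% higher per barcode, and 8.36% lower and 4.22% higher by CPM. Of the 72 T cell-enriched genes measured there, 52.8% were lower and 4.17% higher per barcode, 26.4% and 6.94% by CPM, and 18.1% and 9.72% per T cell reference UMI.

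Some genes of resting and memory T cells had higher values in UEIS KI, at few UMIs. Satb1, a chromatin organiser of naive T cells, had 16 UMIs over 13 UEIS LSL members (highest 2) and 24 over 11 UEIS KI members (highest 8), a log2 ratio of 1.61 (0.64 to 2.62), and 1.24 (0.11 to 2.39) without the highest barcode of each library. Thinned shares were 4.92% and 20.7%, with intervals that overlapped, against 1.48% and 1.28% of unthinned macrophage barcodes. Tcf7, which encodes TCF-1, had 8 UMIs over 7 members and 11 over 6, a ratio of 1.48 (0.03 to 3.0), under the 30 UMIs set for measured genes, and 1.05 (-0.85 to 2.95) without the highest barcodes. Il7r, the IL-7 receptor, had 0.902 (0.679 to 1.17) and 1.17 (0.813 to 1.62) UMIs per barcode, and only per T cell reference UMI was it higher, by 0.98 (0.32 to 1.61). Ccr7, which guides naive cells to lymph nodes, had 15 and 12 UMIs. Of 14 naive and memory genes 6 were measured, with Satb1 higher and Txnip, which encodes a thioredoxin inhibitor, lower per barcode. Over all members 8.52% of all 4706 measured genes were lower and 1.36% higher per barcode. Among members with under 10 C1q UMIs 4 of the list were measured, and by CPM 3 were higher and 0 lower: Satb1, Il7r and Klf2, a factor of quiescent T cells. By CPM 4.22% of all 1304 genes measured there were higher and 8.36% lower, and 6.94% and 26.4% of the 72 T cell-enriched genes. No member with Tcf7 had a Pdcd1 UMI, 0 of 7 in UEIS LSL and 0 of 6 in UEIS KI.

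**Figure D4:**
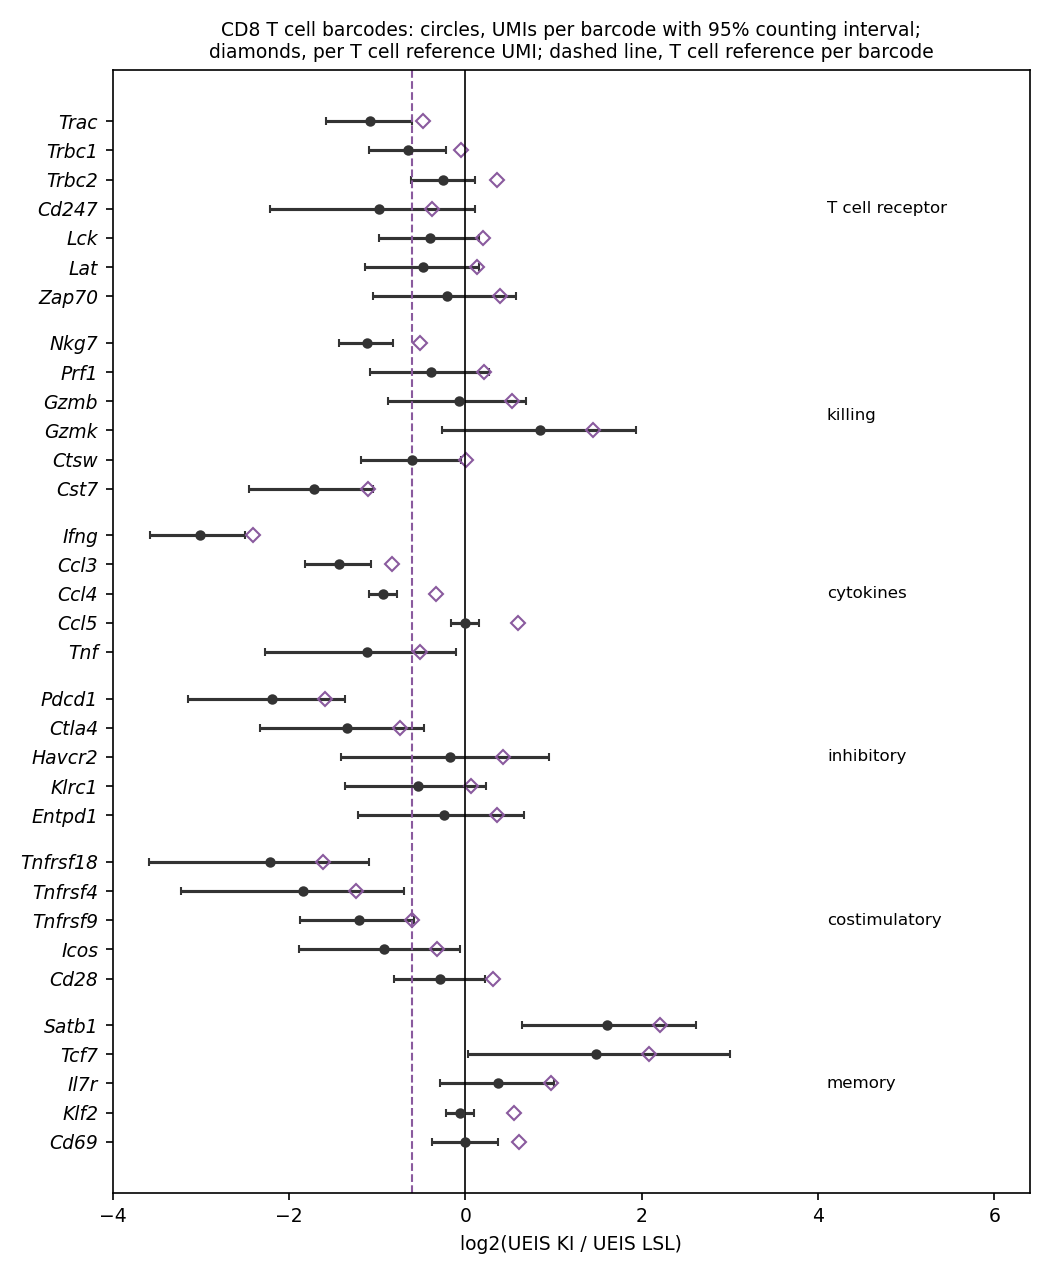
Log2 ratio of UEIS KI to UEIS LSL (x axis) for genes in CD8 T cell barcodes, grouped by role: circles with 95% counting intervals are UMIs per barcode, diamonds are per T cell reference UMI, and the dashed line is the T cell reference itself at -0.60. Ifng, Pdcd1 and Tnfrsf18 lie to the left of the line on both scales, and Satb1 and Tcf7 to the right of 0.

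Interferon-induced RNA was lower per barcode in UEIS KI, beside a large macrophage part. Of 50 type I interferon-induced genes 22 were measured, 12 were lower in UEIS KI and 0 higher, with a median log2 ratio of -0.72. Over all 4706 measured genes 8.52% were lower, with a median of -0.18. Per T cell reference UMI 2 of the 22 were lower and their median was -0.11. Macrophage RNA scaled by C1q came to 49.1% of the list's UMIs in UEIS LSL members and 69.9% in UEIS KI members, and macrophage barcodes themselves had Isg15 in 29.7% and 17.9%, against 52.5% and 30% of members. Among members with under 10 C1q UMIs, where that part was 3.07% and 5.64%, 8 were measured and 7 were lower per barcode. By CPM 2 of them (Isg15 and Ifitm3) were lower, and 1 (Ifitm3) per T cell reference UMI. Of all 1304 genes measured in those members 30.3% were lower per barcode and 8.36% by CPM. Isg15, a ubiquitin-like modifier, had 52 and 10 UMIs there, a log2 ratio per barcode of -1.64 (-2.78 to -0.65). Ifitm3, which hinders virus entry, had 236 and 49, or -1.53 (-2.01 to -1.08). Of 26 interferon-gamma-induced genes 16 were measured over all members, 10 were lower and 0 higher, against the same 8.52% lower over all genes. The C1q-scaled macrophage part was 39.4% and 46.8%. Gbp2, a guanylate-binding protein, had 46 and 2 UMIs in all, but 4 and 1 in the members with under 10 C1q UMIs. Cxcl9, a CXCR3 ligand, had 156 and 7, of which 104 were in 1 UEIS LSL barcode, and 0 in both libraries under 10 C1q UMIs. Cxcl10, another CXCR3 ligand, had 88 and 90 under 10 C1q UMIs, with 23 and 38 in the highest barcodes, a log2 ratio of 0.77 (0.33 to 1.21).

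Cell cycle RNA was lower per barcode in UEIS KI, with a large macrophage part over all members. Of 30 listed genes 21 were measured, 10 were lower and 0 higher, and the median was -0.70. Over all 4706 measured genes 8.52% were lower and 1.36% higher, with a median of -0.18. C1q-scaled macrophage RNA came to 66.5% and 127% of the list's UMIs over all members, and to 7.77% and 18.0% with under 10 C1q UMIs. There 5 genes were measured and 2 were lower per barcode, against 30.3% of all 1304 genes measured there. By CPM or per T cell reference UMI 0 were lower or higher. The list summed to 18.9 and 10.4 UMIs per barcode in those members, and to 98.4 and 93.3 in the C1q-rich ones. Mki67, which marks dividing cells, was seen in 24.6% and 20% of members against 18.6% and 24.8% of macrophage barcodes, so its share over all members was read as background. With under 10 C1q UMIs it had 3 and 1 UMIs, too few for a comparison.

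Against the other T cell gates the members carried the killing and chemokine RNA in both libraries. Nkg7 had 8.11 and 3.73 UMIs per barcode in CD8 T cells, 0.829 and 0.430 in other CD3 barcodes without Cd8, Foxp3 and Trdc UMIs, 0.733 and 0.0930 in the Foxp3 gate and 0.838 and 0.553 in the Trdc gate. Ccl5 had 16.7 and 16.7 in CD8 T cells and 3.40 and 2.18 in the other CD3 barcodes. Gzmb was an exception, at 0.770 and 0.733 in CD8 T cells and 1.80 and 3.09 in the Foxp3 gate. Ifng was lower in UEIS KI among the other CD3 barcodes as well, 0.743 and 0.193 UMIs per barcode, a log2 ratio of -1.94 (-2.67 to -1.29). Rgs16 was lower in all 3 other gates, with ratios of -2.31 (-3.27 to -1.47), -2.80 (-3.96 to -1.84) and -2.46 (-4.91 to -0.60). Pdcd1 had 0.829 and 0.907 in the Foxp3 gate, a ratio of 0.13 (-0.45 to 0.69), and Tnfrsf18 had 4 and 3.88 there, -0.04 (-0.31 to 0.22), intervals that do not overlap those of the CD8 T cells for either gene. Satb1 had 0.577 and 0.640 in the other CD3 barcodes, 0.15 (-0.30 to 0.60), just below the interval in CD8 T cells, which without the highest barcode of each library was 0.11 to 2.39 and overlapped it. Differences between gates rest on the same 2 libraries and were not tested.

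**Figure D5:**
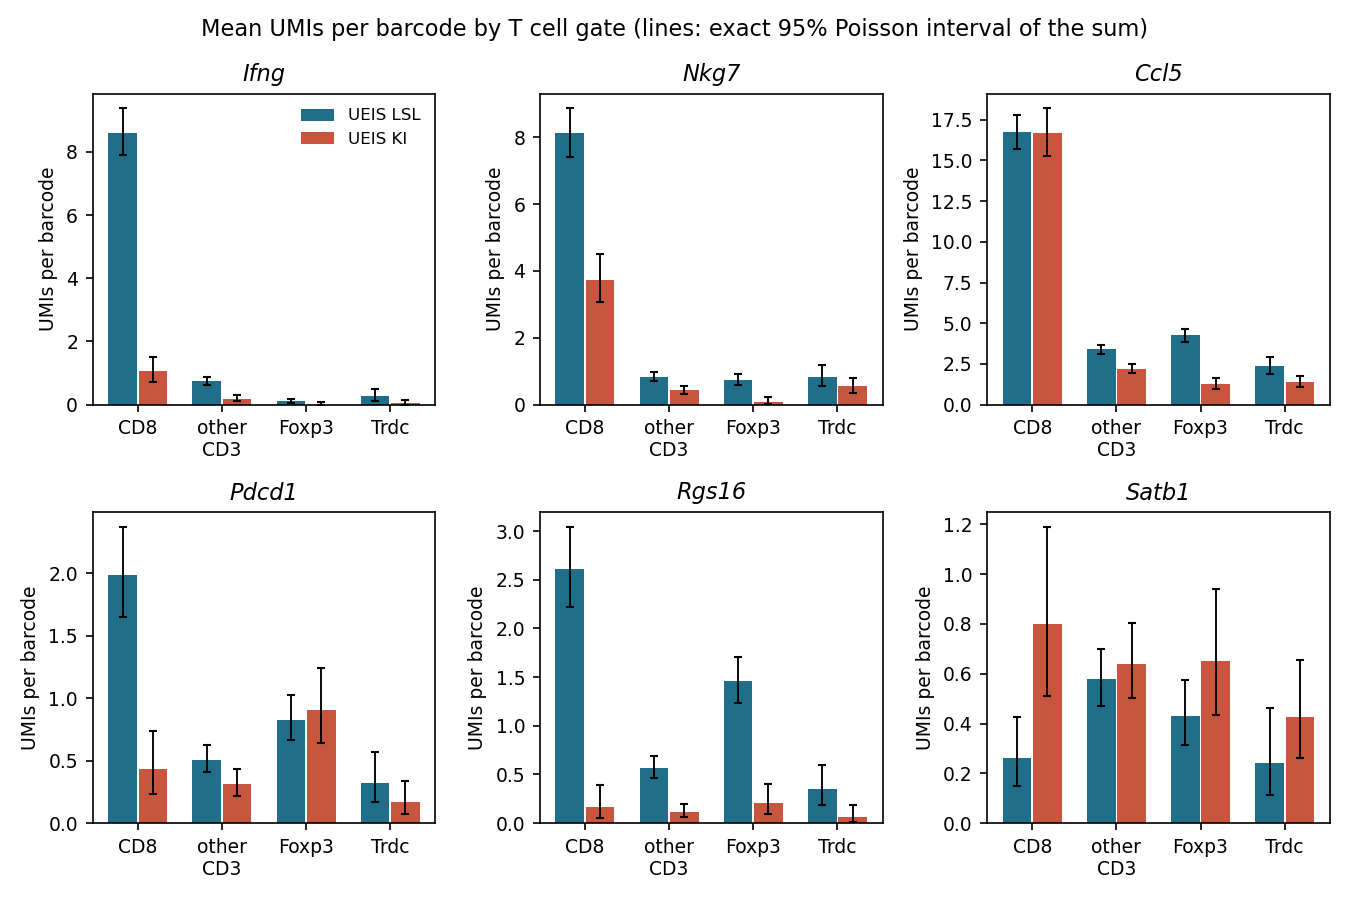
Mean UMIs per barcode (y axis) of 6 genes in 4 T cell gates (x axis), by library, with exact 95% Poisson intervals of the sums as lines. Nkg7 and Ccl5 are highest in the CD8 gate in both libraries, and the Ifng bar of UEIS LSL at 8.61 includes the barcode with 290 UMIs.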

How the data were processed

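The deposited files were, per the file headers and the values, unnormalised UMI counts per gene and barcode of 2 libraries, 1 per group. The submitters' processing notes name mm10 and Cell Ranger 2.1.1, while the file headers name Cell Ranger 8.0.1; the authors' filters are not given in the sources used here. The libraries held 92764697 and 99404988 UMIs in 9527 and 9734 barcodes.

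Gates are stated in the report. Doublets were marked with Scrublet (scanpy 1.11.5) and kept. The members and gene lists were chosen with earlier results of these data known. UMIs were summed over members (Python 3.11.15, scipy 1.17.1), with exact Poisson, Clopper-Pearson and conditional ratio intervals (95%); a ratio against 0 UMIs used a floor of 3 per library. The rule for named genes took the 4 members of each list with the most UMIs, up to 12 T cell-enriched genes per direction ranked by the interval bound nearest 1 (2 were higher), the gate and marker genes, and stated effector, exhaustion, memory and homing genes. Other genes were named after their values were seen, and not every gene the rule took is described. The scripts were tested on simulated data. Gene positions come from GENCODE vM21, where 94.1% of 55357 gene IDs matched, and promoters from RefSeq. The closing section gives the alternatives tried.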

Additional observations from a re-analysis of the deposited data

How the results depend on the processing

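Of 85 genes examined, 47 were called per barcode. Of their 603 values under 14 alternatives (9 planned, 5 added after seeing the data) 591 had the same sign. These genes were picked by their calls in the same barcodes, and the alternatives reuse many of the same UMIs. The shared sign is therefore a description and not separate support. The Ifng log2 ratio of -3.01 was -3.92 with under 10 C1q UMIs, -2.41 per T cell reference UMI and -1.93 thinned to 1000 UMIs. It was -1.85 with at least 2 Cd8 UMIs, -1.85 without barcodes with a Cd4 UMI and -2.18 without the highest barcode of each library. The barcode with 290 Ifng UMIs had 9 C1q UMIs, so it stayed among the members with under 10. It held 72.0% of the UEIS LSL Ifng UMIs there, and no ratio without it was computed for that set. The share with 10 or more C1q UMIs, -0.35 on the log2 scale, was -1.49 without called doublets. List medians shifted as follows. Cytotoxic genes had 0.47 per T cell reference UMI and -0.93 without called doublets, and inhibitory receptors -1.53 with under 10 C1q UMIs. Naive and memory genes had 0.76 per T cell reference UMI, and with under 10 C1q UMIs 1.13 by CPM and 1.38 per T cell reference UMI. Type I interferon-induced genes had -0.11 per T cell reference UMI, and cell cycle genes 0.34 thinned and 0.019 per T cell reference UMI with under 10 C1q UMIs. The sign turned after thinning for Trbc1 (0.16), Thy1 (0.34), Gzma (-0.25), Ctsw (0.18), Icos (0.22), Isg15 (0.073) and Hk2 (0.34). It also turned for Gzma without called doublets (-0.72), for Ctsw per T cell reference UMI (0.0026), and with under 10 C1q UMIs per T cell reference UMI for Ctsw (0.26), Icos (0.13) and Irf1 (0.076). The cause was not tested. No paired analysis was possible because each group held 1 library, so no replicate could be left out either. Members number 61 and 30, and a gene with few UMIs can turn on 1 barcode.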
